A study of Mus musculus with 4 samples.

Results

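The 34 genes described here make and conjugate bile acids in the hepatocyte or carry bile acids, organic anions, organic cations and phospholipids across its membranes. They are a list by function, drawn up with earlier results of these data known, out of 21668 protein-coding genes, and 28 of the 34 could be compared between genotypes. The libraries were made from liver of male mice on the C57BL/6 strain background, 2 wild type and 2 homozygous for a disruption of hemojuvelin (Hjv), the bone morphogenetic protein co-receptor through which hepatocytes set expression of the iron hormone hepcidin. All the mice ate the AIN-93G diet with 2.5 mg of iron per kg, an iron-deficient amount, from 5 weeks of age for 50 days, and liver was taken at 12 weeks. The question the design puts is what loss of Hjv does to the liver transcriptome when dietary iron is scarce. The wild type mice were bought and the knockout mice came from another laboratory, so genotype and source of the animals cannot be told apart. The disruption is in every cell, and the labels do not say whether littermates were used or that each library is a different mouse, so p-values measure the spread between these libraries.

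Bile acids are made from cholesterol. The classical route opens with Cyp7a1, its rate-limiting enzyme, and the alternative route with Cyp27a1 and Cyp7b1. The products are activated to coenzyme A esters, joined to taurine in the mouse, pumped into the canaliculus by Abcb11, reabsorbed in the ileum by Slc10a2 and taken back from portal blood by Slc10a1 and the Slco carriers. The nuclear receptor FXR (Nr1h4) closes the loop through Nr0b2 in the liver and through an intestinal hormone that acts on the hepatocyte receptor Fgfr4 with its partner Klb, and both restrain Cyp7a1.

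The sequences just upstream of 3 transporter genes are shown because Slc10a2 and Slco1a4 had the largest fitted difference above wild type among the transporters and Abcg2 the largest below. Each is the part of the RefSeq promoter window (GRCm38.p6) before the annotated start, outside annotated exons, written 5′ to 3′ on the gene's strand. The Slc10a2 stretch is chr8:5105352-5105537 on the minus strand, that of Slco1a4 is chr6:141856221-141856470 on the minus strand, and that of Abcg2 is chr6:58640296-58640545 on the plus strand, before the third of its 3 RefSeq starts. Capitals mark AGGTCA, the hexamer that many nuclear receptors recognise, searched on both strands.
Slc10a2: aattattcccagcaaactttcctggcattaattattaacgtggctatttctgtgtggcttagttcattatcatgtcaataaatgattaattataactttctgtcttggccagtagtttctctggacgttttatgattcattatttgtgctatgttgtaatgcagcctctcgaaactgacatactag
Slco1a4: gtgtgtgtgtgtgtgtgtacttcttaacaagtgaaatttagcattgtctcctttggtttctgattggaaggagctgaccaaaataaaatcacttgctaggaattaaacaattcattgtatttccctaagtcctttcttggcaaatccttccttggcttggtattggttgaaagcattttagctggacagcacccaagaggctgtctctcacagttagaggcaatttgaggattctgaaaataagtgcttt
Abcg2: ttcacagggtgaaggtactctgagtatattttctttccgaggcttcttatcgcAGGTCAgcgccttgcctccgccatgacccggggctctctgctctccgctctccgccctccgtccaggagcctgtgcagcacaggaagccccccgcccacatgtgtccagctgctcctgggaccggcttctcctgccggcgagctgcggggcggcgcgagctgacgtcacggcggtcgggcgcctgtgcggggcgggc
The hexamer stood 197 bases before the Abcg2 start, and these letters are not in the other two stretches. RefSeq windows were matched for 23 of the 34 genes, 28 windows in all, and 9 of them (32.1%) held AGGTCA in the 250 bases before the start, against 14.0% of 32851 windows of the same length. Some genes gave more than 1 window, Abcg2 3 of them, so windows are not separate genes. The 11 genes not matched include Cyp7a1, Abcc6 and Abcc3. The match is a description of letters and not a bound site. The libraries' own assembled loci began near these starts: for Slc10a2 at -114 and -81 bases from the RefSeq start in wild type and -40 and -98 in knockout (negative is upstream), and for the main Abcg2 locus at 15, 18, 40 and -23 bases. The outermost Slco1a4 locus that was used began at -22, -7 and -27 bases in the first 3 libraries and at 845 bases, inside the gene, in the second knockout library.

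Levels are FPKM (the number of sequenced fragments for each kilobase of transcript, relative to library depth) averaged over the loci of a gene and scaled between libraries, called scaled FPKM below. From the spacing of the confidence bounds of short loci, the depth came to about 87.0, 51.3, 55.0 and 132 times 1000000 fragments (wild type 1, wild type 2, knockout 1, knockout 2, the order used throughout), if 1 step is 1 fragment. Hjv, the targeted gene, stood at 9.22 and 29.6 scaled FPKM in wild type and had no usable locus in knockout 1. In knockout 2 it had 0.236 from a locus over 14.3% of a transcript. Of 15 hepatocyte markers 11 had a value, with Apoa1 at 1601 to 5010, and albumin had no usable locus in any library. A missing value is therefore no zero. Loci of at most 250 bases made up 22.9%, 5.35%, 42.1% and 6.63% of the libraries' loci. The difference between the 2 knockout libraries followed gene GC content across genes (Spearman's rho 0.478, and 0.264 between the wild type libraries). Both were taken over the 7926 genes tested, which are not independent.

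In knockout liver the ileal-type bile acid carrier Slc10a2 stood 4.58-fold above wild type, the organic anion carrier Slco1a4 2.71-fold, the basolateral exporter Abcc6 2.60-fold and the synthesis enzyme Cyp7a1 2.32-fold, as ratios of mean scaled FPKM. The canalicular exporter Abcg2 stood at 0.557 of wild type and the prostaglandin carrier Slco2a1 at 0.528, the latter with a direction that turned when the loci of a gene were summed. Most of the abundant genes of the same functions, among them Slc10a1, Slco1a1, Baat, Akr1c6 and Cyp7b1, had wild type and knockout values that overlapped. No gene of the list passed limma's test with Benjamini-Hochberg adjustment over 7926 genes: the smallest adjusted p was 0.315, for Abcc6, 0 of the 7926 genes passed (0%), and the smallest adjusted p of all was 0.168. Without adjustment, limma gave a p under 0.05 for 4 of the 28 higher (5.83% of all genes tested) and 2 lower (5.35% of all genes).

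Genotypes did not overlap for 11 of the 28 genes, where 46.1% of all genes tested did not. For 5 of them the knockout pair was the higher one (22.3% of all genes) and for 6 the lower one (23.8%), counts near the background. Values of the other 17 overlapped. Groups that did not overlap and differed at least 2-fold numbered 4 higher, against 2.59% of all genes, and 0 lower, against 1.43%. The median log2 difference over the 28 was -0.13, beside 0.02 over all genes tested. The smallest two-sided p that an exact permutation of 2 against 2 libraries can reach is 0.333. Scaling bears on the direction: with the values as deposited, 35.9% of all genes lay higher and 9.21% lower, the median of all genes moved to 0.19, and the list had 9 higher, 3 lower and a median of 0.08, below that shift. The median absolute log2 difference within the wild type pair was 0.31 here and 0.18 over all genes, and within the knockout pair 0.40 and 0.33.

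**Figure D1:**
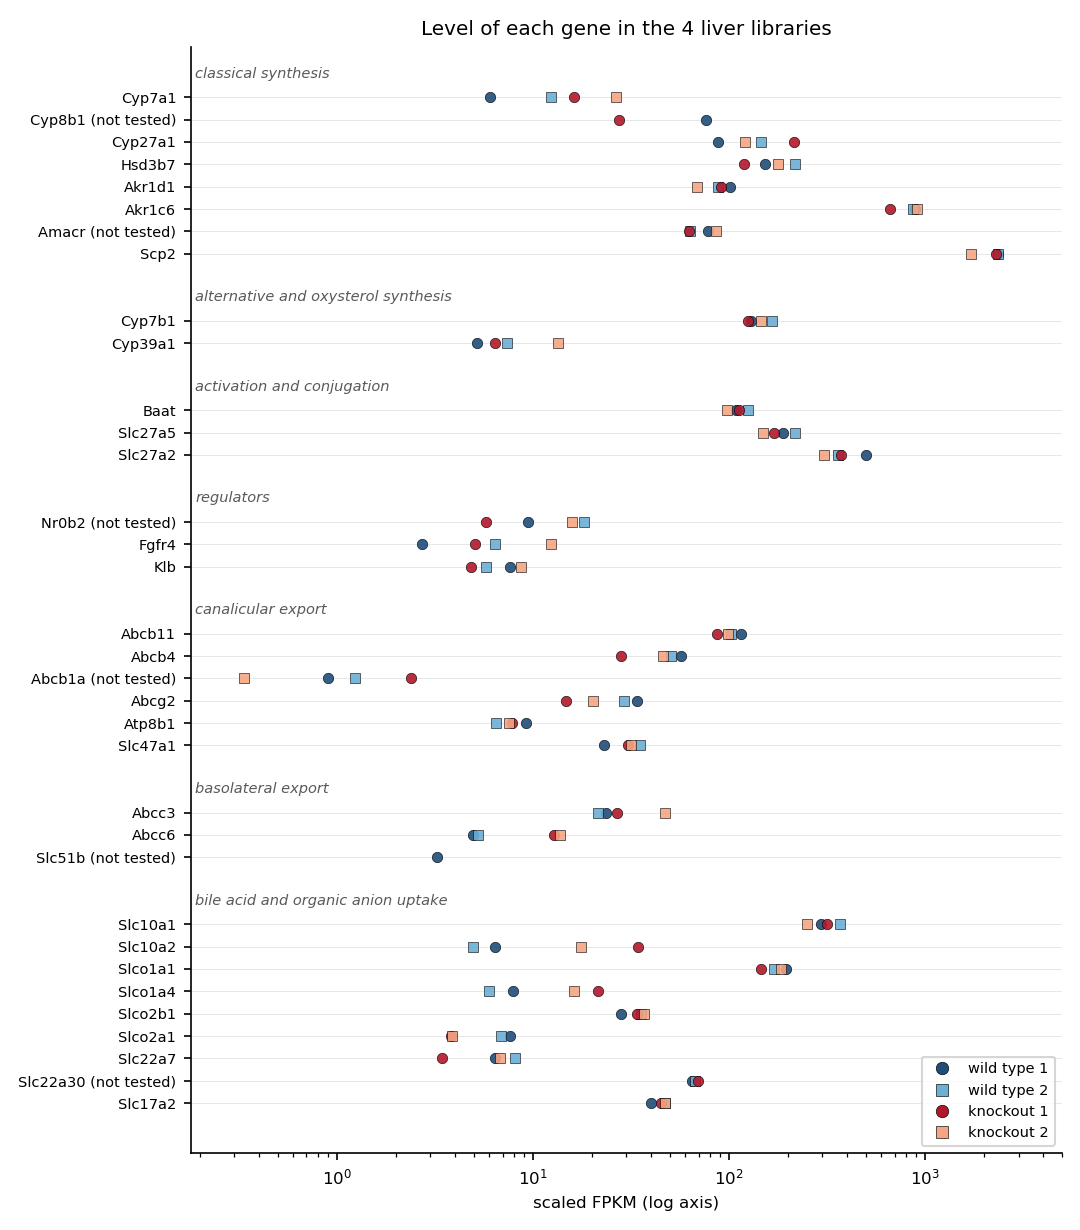
Scaled FPKM (log axis) of each of the 34 genes in the 4 liver libraries, grouped by role, with 1 point per library and no error bar since each point is 1 library. Levels run from 0.337 for Abcb1a in knockout 2 to 2360 for Scp2 in wild type 1, and the red knockout points stand apart to the right for Slc10a2, Slco1a4 and Abcc6.

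**Figure D2:**
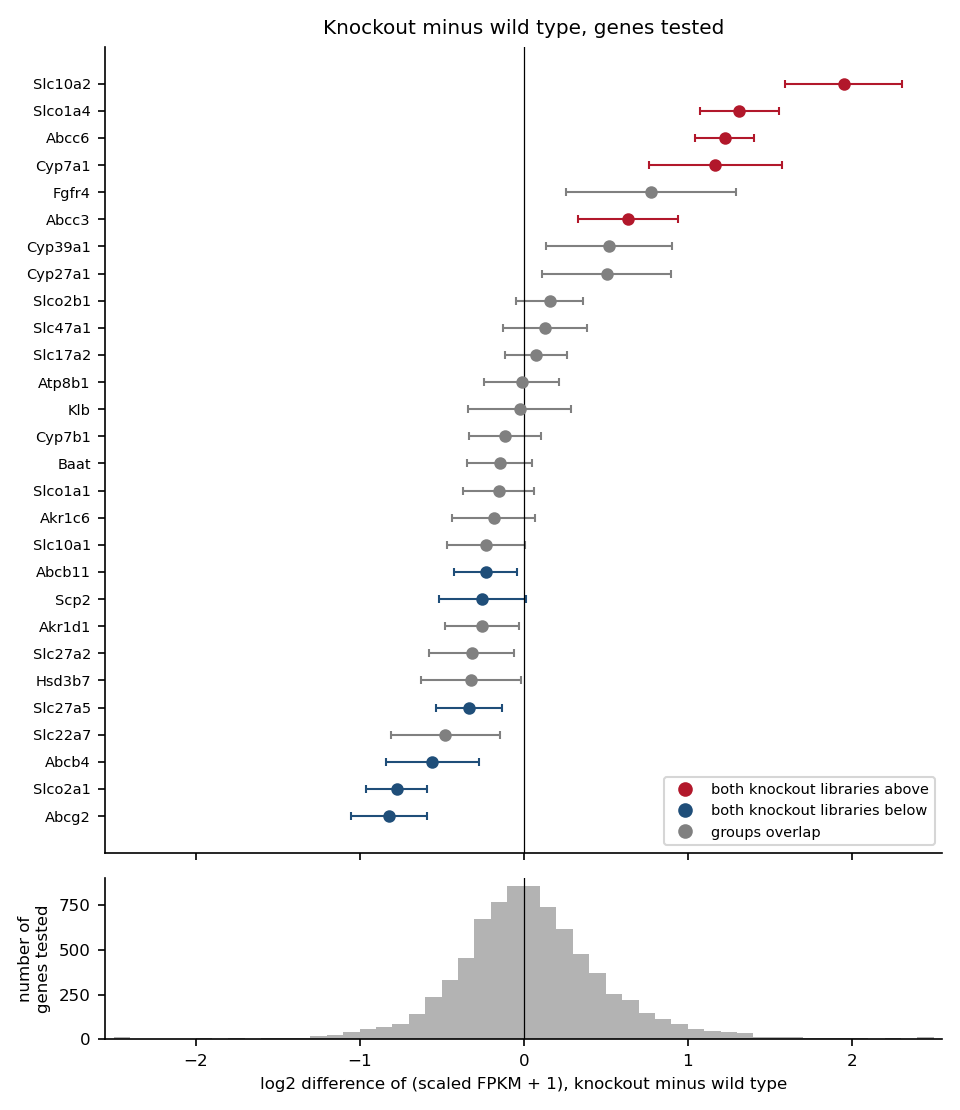
Upper panel, the log2 difference of (scaled FPKM + 1), knockout minus wild type, with limma's standard error (bars), for the 28 genes tested. Lower panel, the same difference for all 7926 genes tested, values beyond 2.5 in either direction gathered in the end bins. Slc10a2 lies at 1.95 and Abcg2 at -0.82, the ends of the list.

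Of the 8 genes of the classical synthesis route 6 were tested, 1 was higher and 1 lower in both knockout libraries (22.3% and 23.8% of all genes were), and 4 overlapped. Cyp7a1, the 7α-hydroxylase that opens the route, had 6.03 and 12.4 scaled FPKM in wild type, against 16.3 and 26.4 in knockout. Every knockout value was above every wild type value, but the 2 wild type libraries themselves differed by 0.93 on the log2 scale. Means were 9.19 ± 4.48 and 21.3 ± 7.19 (SD, n = 2 each). The fitted difference was 1.17 on the log2(scaled FPKM + 1) scale (SE 0.41, limma adjusted p = 0.438), and it was 0.70 without wild type 1 and 1.63 without wild type 2. Wild type 1 rests on 2 separate loci over 66.0% of the transcript, at 5.92 and 5.10 deposited FPKM, and about 1232 fragments.

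Cyp8b1, the sterol 12α-hydroxylase that sets the share of cholic acid, is a single-exon gene of 1950 bases, and its value depended on how far each assembled locus ran on. The loci were 2137, 5455, 3826 and 5833 bases long, extending up to 3229 bases past the annotated end, and stood at 76.6, 42.3, 27.4 and 35.4 scaled FPKM. The wild type 2 and knockout 2 loci lay less than 50% inside the gene, so the gene was not tested. Per locus rather than per kilobase (scaled FPKM times locus length in kilobases) the values were 164, 231, 105 and 207, and the groups overlapped.

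**Figure D3:**
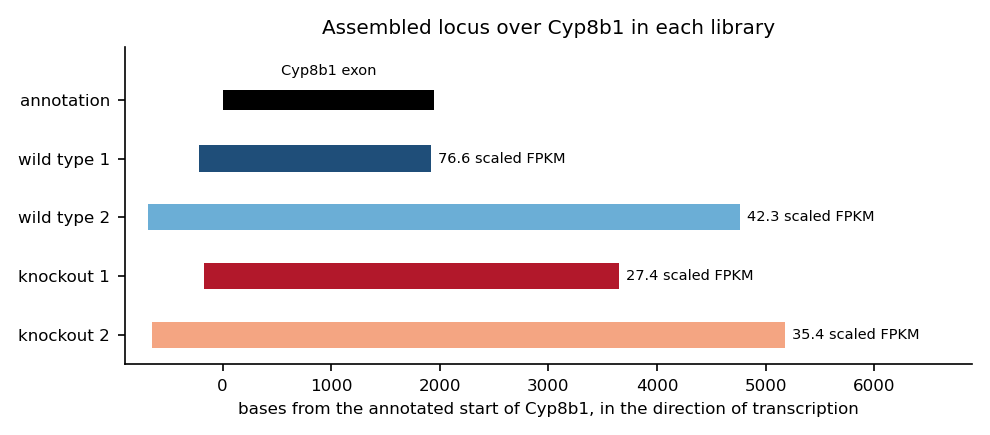
The locus assembled over Cyp8b1 in each library (bars) against the annotated exon (black), in bases from the annotated start in the direction of transcription, with the locus's scaled FPKM beside it. The 2137-base locus of wild type 1 has the highest FPKM and the 5833-base locus of knockout 2 is the longest.

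The other classical enzymes showed no separation apart from Scp2. Cyp27a1, the mitochondrial side-chain hydroxylase, had 87.7 and 145 scaled FPKM in wild type, against 215 and 120 in knockout, so that knockout 2 lay between the wild type libraries. Hsd3b7, which oxidises the 3β-hydroxyl, had 152, 218, 119 and 178. Of its 50-base words 93.9% are shared with the predicted model Gm49388 at the same place, so the values of the gene and the model cannot be told apart. For Akr1d1, the 5β-reductase, the levels were 102, 88.2, 91.3 and 68.5. Akr1c6, a 3α- and 17β-hydroxysteroid dehydrogenase, was abundant at 895, 866, 661 and 908. The fitted log2 differences of these 4 were 0.51, -0.32, -0.26 and -0.18, all with overlapping groups.

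Scp2, the sterol carrier and peroxisomal thiolase, was the most abundant gene of the list, with 2360 and 2354 scaled FPKM in wild type, against 2291 and 1711 in knockout. Both knockout values were lower, but knockout 1 by only 0.04 on the log2 scale, and the fitted difference of -0.25 (SE 0.26, limma adjusted p = 0.721) was within its error. A processed pseudogene, Scp2-ps2, shares 41.4% of its 50-base words. Amacr, the racemase of the side chain, had 78.2, 63.4, 62.3 and 85.9, with no more than 49.8% of a coding transcript spanned in wild type 1 and 48.4% in knockout 1, and was not tested.

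Neither gene of the alternative and oxysterol routes separated the genotypes. Cyp7b1, the oxysterol 7α-hydroxylase, stood at 130, 165, 125 and 146 scaled FPKM (log2 difference -0.12), on this per-length scale above Cyp7a1 in every library. Cyp39a1, which hydroxylates 24-hydroxycholesterol, stood at 5.21 and 7.36 in wild type, against 6.37 and 13.5 in knockout. Its fitted difference of 0.52 came from knockout 2 and was 0.03 without it.

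All 3 genes of activation and conjugation had negative fitted differences. Over the whole list 17 fitted differences were negative and 11 positive. Of the 3 genes 1 lay lower in both knockout libraries, where 23.8% of all genes did. Slc27a5, the bile acid coenzyme A ligase, had 188 and 216 scaled FPKM in wild type, against 171 and 149 in knockout, a log2 difference of -0.34 (SE 0.20, limma adjusted p = 0.558). Baat, which joins the ester to taurine or glycine, had 108, 125, 113 and 98.1, with overlapping groups. Slc27a2, a very long chain acyl coenzyme A synthetase that also activates cholestanoic acids, had 499, 359, 374 and 307. There knockout 1 lay above wild type 2, and the log2 difference was -0.32.

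The feedback regulators were low and varied between libraries of 1 genotype. Nr0b2 (SHP), the repressor downstream of FXR, had 9.44 and 18.2 scaled FPKM in wild type, against 5.75 and 15.9 in knockout. In each genotype the second library was well above the first, and Nr0b2 was not tested because the wild type 2 locus spanned 47.8% of the coding transcript. Fgfr4 had 2.72 and 6.41 in wild type, against 5.04 and 12.4 in knockout. Its groups overlapped, its log2 difference was 0.78 (SE 0.52, limma adjusted p = 0.588), and correction for GC content brought it to 0.28. Klb, the co-receptor, had 7.66, 5.75, 4.86 and 8.65, with a log2 difference of -0.02.

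Of the list's 6 canalicular genes 5 were tested. Of these 3 lay lower in both knockout libraries and 0 higher, where 23.8% and 22.3% of all genes did. Of the 3, Abcb4 turned when loci were summed. Canalicular exporters of the wider list described below did not all lie lower. Abcg5 (30.6, 29.3, 33.2 and 32.1) and Abcg8 (22.9, 23.0, 28.8 and 39.8 scaled FPKM) lay higher in both knockout libraries. Abcc2 (83.0, 62.7, 63.6 and 64.2) overlapped. Abcg2, the breast cancer resistance protein that exports urate, porphyrins and sulfated conjugates, had 33.9 and 29.0 scaled FPKM in wild type, against 14.7 and 20.4 in knockout. The knockout values were well under both wild type values, with means of 31.5 ± 3.43 and 17.5 ± 4.0 (SD, n = 2 each). The fitted log2 difference was -0.82 (SE 0.23, limma adjusted p = 0.420). It was wider on the full-length locus alone: the 17-exon locus that runs from the promoter shown above stood at 53.1, 45.4, 27.6 and 19.4 deposited FPKM, and the highest locus per gene gave -1.25. The averaged value also takes in short single-exon loci, present at 0.957 to 3.35 deposited FPKM in 3 libraries and not in knockout 2.

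Abcb4, the phosphatidylcholine floppase, had 56.9 and 50.7 scaled FPKM in wild type, against 28.3 and 46.3 in knockout, so that most of its separation lay in knockout 1. Its log2 difference was -0.56 (SE 0.28, limma adjusted p = 0.517), -0.90 without knockout 2 and -0.21 without knockout 1, and it turned to 0.13 when a gene's loci were summed. Abcb11, the bile salt export pump, had 116, 103, 87.1 and 98.6, a narrow separation of -0.23 with SE 0.19. The other canalicular genes overlapped: Atp8b1, the aminophospholipid flippase, had 9.21, 6.48, 7.84 and 7.52, and Slc47a1, the proton-coupled extruder of organic cations, 22.9, 35.1, 30.7 and 31.6. Abcb1a, one of 2 mouse P-glycoproteins, was near the floor at 0.898, 1.23, 2.39 and 0.337 and was not tested. It shares 17.0% of its 50-base words with its paralogs.

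Both tested genes of basolateral export lay higher in knockout, as 22.3% of all genes did. Abcc6, an ATP-binding cassette exporter of the sinusoidal membrane through which hepatocytes release ATP, had 4.96 and 5.27 scaled FPKM in wild type, against 12.9 and 13.8 in knockout. Libraries of 1 genotype were close together, by 0.07 and 0.09 on the log2 scale, and the groups far apart. The difference was 1.23 on the log2(scaled FPKM + 1) scale (SE 0.18, limma adjusted p = 0.315), rank 25 of the 7926 genes by p. Abcc6 also has the highest GC content of the list, 59.0%, and correction for GC content brought the difference to 0.71 with an adjusted p of 0.435. Any further part of GC content in the result was not tested.

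Abcc3, an exporter of glucuronides and bile acids into sinusoidal blood, had 23.7 and 21.6 scaled FPKM in wild type, against 27.0 and 47.0 in knockout. Knockout 1 lay just above wild type and knockout 2 far above, and the log2 difference was 0.63 (SE 0.30, limma adjusted p = 0.504) and 0.24 without knockout 2. In knockout 1 the gene was assembled in 2 parts, a 19-exon locus at 43.5 and a 12-exon locus at 13.1 deposited FPKM, where the other libraries held 1 locus of 30 exons. Slc51b, a subunit of the organic solute transporter, had a locus only in wild type 1, at 3.26 scaled FPKM over 34.8% of a transcript, and was not tested.

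Of the 9 uptake carriers 8 were tested, 2 lay higher in both knockout libraries, 1 lower, and 5 overlapped, beside 22.3% higher and 23.8% lower over all genes. The abundant ones were among those that overlapped. Slc10a1 (NTCP), the main sodium-dependent bile acid carrier of the sinusoidal membrane, had 294 and 367 scaled FPKM in wild type, against 316 and 249 in knockout. Slco1a1, an organic anion carrier prominent in male liver, had 196, 169, 147 and 183, and Slco2b1, a carrier of steroid sulfates, 28.0, 35.7, 34.1 and 36.8. These 3 overlapped, with log2 differences of -0.23, -0.15 and 0.16. Slc17a2, a sodium phosphate cotransporter family member, was steady at 40.2, 47.4, 44.8 and 47.4.

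Slc10a2 (ASBT), the carrier known for bile acid uptake in ileum and in the bile duct epithelium, had 6.38 and 4.94 scaled FPKM in wild type, against 34.3 and 17.6 in knockout. Both knockout libraries lay well above wild type, although they differed from each other by 0.92 on the log2 scale. Means were 5.66 ± 1.01 and 25.9 ± 11.8 (SD, n = 2 each). The difference was 1.95 (SE 0.36, limma adjusted p = 0.375), the largest of the list in either direction, and 1.49 without knockout 1 and 2.41 without knockout 2. Loci over all 6 exons were assembled in each library, on about 2112, 879, 8897 and 8842 fragments. Apart from Spp1, the markers of bile duct cells with a value were low. Of 10 cholangiocyte markers Krt7, Krt19 and Cftr had a usable locus in knockout 2 alone, at 0.475, 0.454 and 0.206, and Ggt1 had none. The sum over the markers with a value was 37.5 and 28.9 in wild type, against 28.5 and 19.2 in knockout. It was taken over 4, 5, 3 and 8 markers, so not over the same genes. Most of it was Spp1 alone, at 31.6, 22.4, 23.7 and 13.1 scaled FPKM. The part of bile duct cells in the Slc10a2 values was not tested. In bulk liver a change in the number of cells of a type and a change in RNA per cell cannot be told apart.

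Slco1a4, a carrier of bile acids, organic anions and cardiac glycosides, had 7.91 and 6.00 scaled FPKM in wild type, against 21.5 and 16.1 in knockout. The groups stood apart, with means of 6.96 ± 1.35 and 18.8 ± 3.81 (SD, n = 2 each). The difference was 1.32 (SE 0.24, limma adjusted p = 0.375), with a range of 1.12 to 1.51 when 1 library was left out and of 1.20 to 1.51 under the other ways of processing. A 142-base locus at its 5′ end in knockout 2 was listed at 4094 FPKM with bounds of 1.66 and 3.59, and was not used. In knockout 1 the deposited value of 25.8 FPKM lay above its bounds of 17.2 and 20.1, so that value is uncertain. It takes in a 4-exon locus at 24.2 FPKM with bounds of 8.35 and 12.2, which was used.

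Slco2a1, the prostaglandin carrier, known from endothelial cells, had 7.68 and 6.91 scaled FPKM in wild type, against 3.82 and 3.88 in knockout. The libraries of each genotype were close and the groups apart, with a log2 difference of -0.77 (SE 0.19, limma adjusted p = 0.402). The assembly differed with genotype as well. The wild type libraries held the gene mainly in 1 locus of 15 exons, at 8.27 and 6.51 deposited FPKM, while knockout 1 held 6 pieces between 0.481 and 8.46 and knockout 2 a 12-exon locus at 2.93 beside a 3-exon locus at 7.57. Taking the highest locus per gene gave -0.07 and summing the loci gave 0.50, so the direction depends on how the pieces are joined. The summed level of 10 liver endothelial markers was 67.4 and 80.6 in wild type, against 79.0 and 102 in knockout, and their part in the result was not tested.

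Slc22a7 (OAT2), an organic anion carrier, had 6.39 and 8.13 scaled FPKM in wild type, against 3.45 and 6.82 in knockout, overlapping, with a log2 difference of -0.48. Slc22a30, a member of a mouse organic anion carrier cluster, had 64.8, 67.2 and 69.3 in the first 3 libraries. Knockout 2 held only a 1305-base, mostly intronic locus there, so Slc22a30 was not tested, and it shares 36.1% of its 50-base words with Slc22a27, Slc22a28 and Slc22a29.

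**Figure D4:**
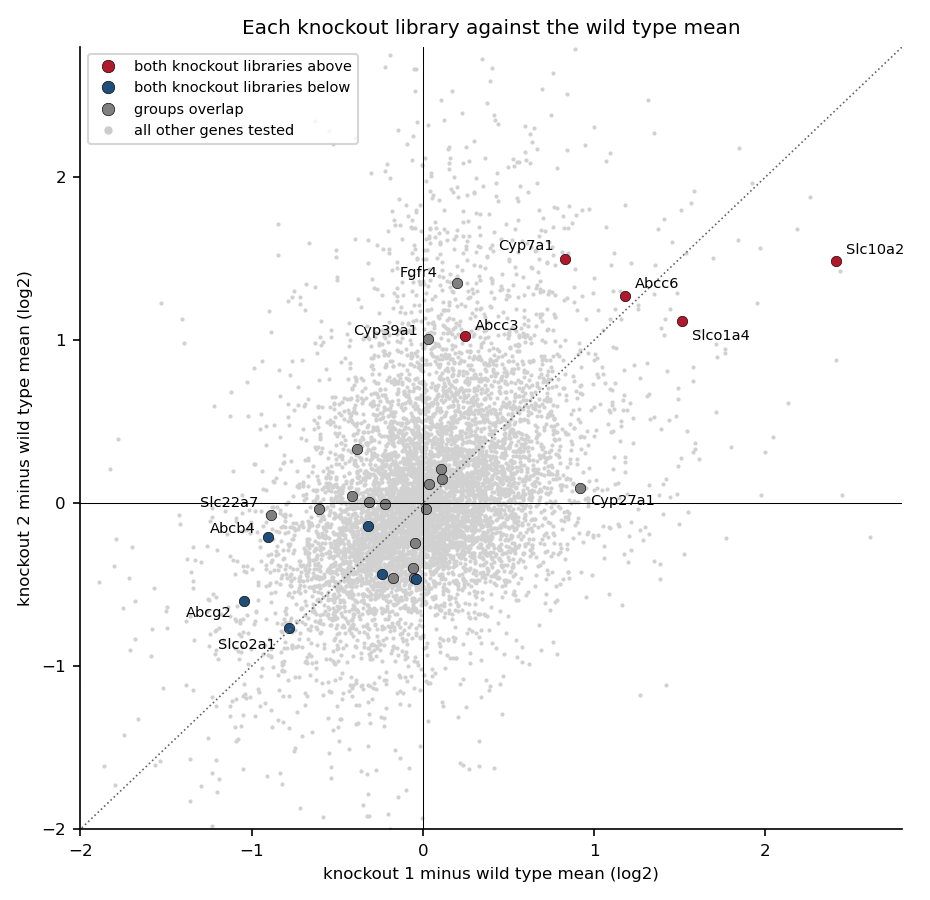
Log2 difference of each knockout library from the wild type mean, knockout 1 across and knockout 2 up, for the 28 genes (coloured by whether the groups overlap) and the other genes tested (grey, 65 of 7926 genes lie outside the axes). The dotted line marks equal differences. Slc10a2 lies at 2.41 and 1.49 and Slco1a4 at 1.51 and 1.12, below the line, while Abcc3 at 0.24 and 1.02 lies above it.

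A wider list of 59 other genes of bile acid and organic solute handling was examined beside them. Of these 49 had a value and 37 were tested: 10 lay higher in both knockout libraries (22.3% of all genes did), 4 lower (23.8% of all genes), 23 overlapped, and the median log2 difference was -0.06. In the higher group 3 had an unadjusted limma p under 0.05 (Acox2, Rxra and Slc22a18, against 5.83% of all genes), in the lower group 0 (5.35% of all genes), and no gene passed with adjustment. Rxra, the dimer partner of FXR, PXR and CAR, had 20.4 and 20.2 scaled FPKM in wild type, against 38.0 and 69.0 in knockout. The log2 difference was 1.30. In knockout 2 the deposited Rxra value of 65.9 FPKM had bounds of 66.1 and 372, so that value is uncertain. Slc22a18, an organic cation carrier-like gene, had 16.7, 18.5, 35.0 and 39.7, a difference of 1.04. These were the only 2 of the wider list whose groups were apart by at least 2-fold. Acox2, Nr1h4, Slco1b2, Abcg5, Abcg8 and Abcc2 are named outside that criterion, with their values seen. Nr1h4 (FXR) itself had 45.4, 59.9, 33.6 and 55.3 and overlapped, as did Slco1b2, the main liver carrier of bilirubin and statins, at 618, 629, 757 and 568.

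**Figure D5:**
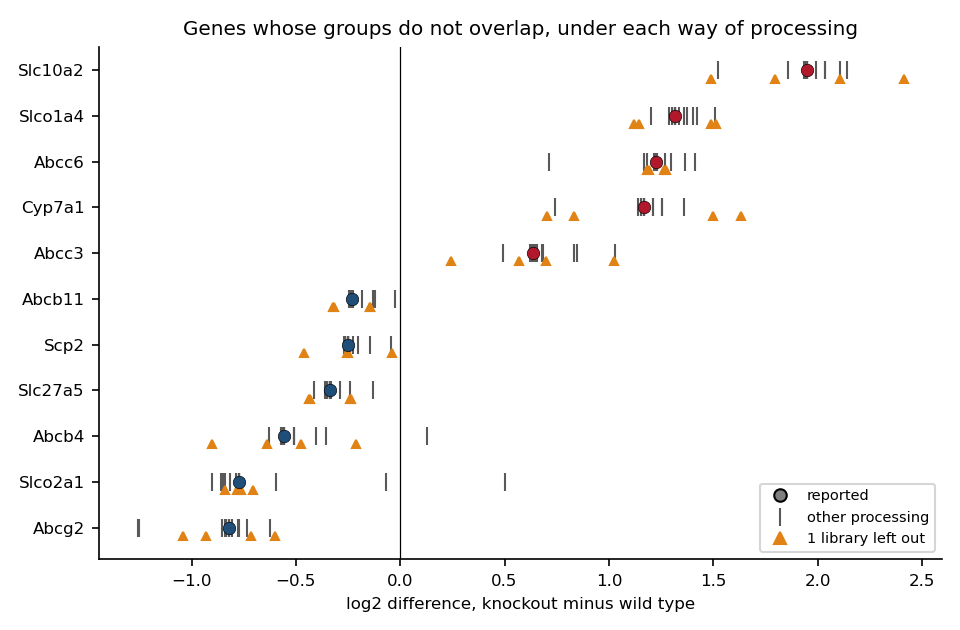
Log2 difference, knockout minus wild type, of the 11 genes whose groups do not overlap: as reported (circles), under each other way of processing (bars) and with 1 library left out (triangles). Slc10a2, Slco1a4, Abcc6 and Cyp7a1 stay above 0 and Abcg2 below 0 throughout, while Slco2a1 and Abcb4 cross 0 when a gene's loci are summed.

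Among the 11 genes whose groups did not overlap, 2 changed sign under any of the alternatives, Slco2a1 and Abcb4, and among the 17 that overlapped 9 did. Leaving out knockout 1 was the only setting in which any of the list passed adjustment: Slc10a2 (limma adjusted p = 0.0396), Abcc6 (0.04) and Abcc3 (0.0496) did so, when 488 genes passed in all and the single knockout library was taken to vary as the wild type pair does.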

How the data were processed

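Liver RNA of 2 wild type and 2 Hjv knockout libraries was extracted with the RNeasy kit, prepared with TruSeq and sequenced on a HiSeq 2000, per the labels' protocols. Reads passed through FastQC, TopHat and Cufflinks (no versions given), with mm9 as the stated build, per the submitters' processing notes. Each deposited file gives FPKM with lower and upper bounds, also in FPKM, for loci assembled in each library, without gene names, per the file headers. The coordinates match GRCm38: 13.5% to 33.2% of loci over 2000 bases lie within 20 bases of a GENCODE M21 gene edge, against 0.205% to 0.308% after a shift of 1000000 bases.

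Loci were assigned to 21668 protein-coding genes by exon overlap (283 predicted models left out). A locus had to lie at least 50% inside its gene, and its FPKM at most 3 times the midpoint of its bounds. Where a gene had several loci, their FPKM were averaged with exonic length as the weight, and the loci had to span at least 50% of a coding transcript. Libraries were scaled by the median of ratios (size factors 0.935, 0.915, 1.20 and 0.955). Genes with a value in all 4 libraries and at least 1 FPKM in at least 2 were tested with limma 3.58.1 in R 4.3.3 on log2(scaled FPKM + 1), with a mean-variance trend, two-sided, with Benjamini-Hochberg adjustment over all genes tested and a threshold of 0.05. A fold change on this scale understates changes of low genes. The fit has 2 residual degrees of freedom and a prior of 2.87. The test was checked on simulated data. Library depth was read from the bounds of loci of at most 250 bases. Of these bounds at least 99.8% fell on whole multiples of a step within a tolerance of 0.05. Fragment numbers of a gene were estimated from that depth, the midpoint of the bounds of its used loci and their annotated exonic bases. They cover counting only. All 34 members were named, and by rule those of the wider list with groups apart by at least 2-fold. Acox2, Nr1h4, Slco1b2, Abcg5, Abcg8 and Abcc2 were added after their values were seen. The members, lists and alternatives were chosen with earlier results of these data known. Promoter letters are from RefSeq.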

Additional observations from a re-analysis of the deposited data

How the results depend on the processing

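Of 527 values for single genes under other settings 21 moved by more than their replicate error, and 2 changed direction among genes whose groups did not overlap: summing a gene's loci gave 0.13 for Abcb4 and 0.50 for Slco2a1. The cause was not tested. The number of genes of the list past the adjusted threshold was 0 in all settings that kept the 4 libraries, and 0 to 3 when 1 library was left out. The number higher at an unadjusted limma p under 0.05 was 4 and ranged from 3 to 7 when 1 library was left out; the number lower was 2, with a range of 0 to 4 when 1 library was left out, and was 1 with the highest locus per gene, 1 with the sum of a gene's loci and 1 with a minimum span of 80%, which tests fewer genes. The genes with both knockout libraries above both wild type numbered 5, but 9 with the values as deposited and 8 with the sum of a gene's loci, and 6 to 11 when 1 library was left out. Those below numbered 6, but 3 with the values as deposited, and 10 to 13 when 1 library was left out, where fewer libraries have to separate. The median over the list ranged from -0.11 to 4.6e-05 when 1 library was left out. The midpoint of the confidence bounds in place of FPKM was tried after seeing the data.

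The replicate numbers are shared by the genotypes. Nothing in the labels says that a number marks a shared litter, batch or day, so libraries were not taken as pairs. The deviations of same-numbered libraries correlated at 0.0788 across genes, which cannot settle whether they were paired. With the replicate number as a block, limma gave 5 higher and 2 lower at an unadjusted p under 0.05 and 0 after adjustment, and 847 of all genes at an unadjusted p under 0.05 in place of 886.

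Single genes resting on few fragments, such as Slc22a7 in knockout 1 (308), are less precise than the rest. Genes assembled in pieces (Slco2a1, Abcb4, Abcc3) or with a locus that runs past the gene (Cyp8b1) have levels that depend on the assembly of each library, which fragmented most in knockout 1 (2.15 loci per gene, against 1.48 in knockout 2).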

Other observations

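The Slco1 genes lie side by side on chromosome 6, and their levels were looked at after Slco1a4 had been seen to differ, so these values are a description. Slco1b2, Slco1a4 and Slco1a1 are given above. Slco1a6, next to Slco1a1 on the same strand, had 7.47 and 6.72 scaled FPKM in wild type, from loci over 0% of a coding transcript, and no usable locus in knockout, where knockout 1 held 1 locus that was not used. Slco1a5 and Slco1c1 had no usable locus in any library. Within the cluster, groups that lay apart were seen for Slco1a4 only, among the 3 genes tested.

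Of 8 hepatocyte markers tested 3 lay lower in both knockout libraries (23.8% of all genes did), 1 higher (22.3%) and 4 overlapped. The lower ones were Tdo2 and Tat, enzymes of tryptophan and tyrosine breakdown, and Pck1, an enzyme of glucose formation. Tdo2 had 1013 and 889 scaled FPKM in wild type, against 401 and 543 in knockout. Tat had 456 and 407 in wild type, against 246 and 238 in knockout. Pck1 had 822 and 986 in wild type, against 533 and 616 in knockout. Apoa1, the main protein of high-density lipoprotein, lay higher, at 2643 and 1601 in wild type, against 3421 and 5010 in knockout. These 4 were picked after their values were seen, and none passed limma's test after adjustment.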
